A study of Mus musculus with 8 samples.

Results

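Vascular basement membrane genes were described in endothelial cells sorted from mouse melanoma. The 10 genes were chosen by name, with earlier results of these data known. They were the collagen IV chains Col4a1 and Col4a2 and the laminin chains Lama4, Lama5, Lamb1 and Lamc1. The others were the heparan sulphate proteoglycan Hspg2 (perlecan), the linker proteins Nid1 and Nid2 and the collagen-binding matricellular protein Sparc. Together these are 10 of the 28692 genes in the count matrix, and all 10 were detected in both cell types. MT-ret melanoma fragments had been grown on the flank of 10 C57BL/6N mice, with no other agent or genotype given in the labels. From these tumors 10000 blood vascular endothelial cells (BEC) and 10000 cells of the lymphatic endothelium (LEC) were taken by fluorescence-activated sorting. Each sort has 4 libraries in the labels, prepared with a droplet kit that reads the 3′ end of each transcript and tags every captured molecule with a unique molecular identifier (UMI). The cell names in the matrix give the sort and not the library, so each sort was 1 sample and no test between samples was possible. There is no tumor-free tissue among these samples.

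The basement membrane is a thin sheet of matrix on the outer side of the endothelium. Laminin trimers, each of an alpha, a beta and a gamma chain, form one network at the cell surface, collagen IV forms a second that is covalently cross-linked, and nidogens and perlecan link these layers. Blood capillaries and venules are wrapped in a continuous basement membrane, whereas that of initial lymphatic vessels is thin and discontinuous. In endothelium the laminin alpha chains are mainly those encoded by Lama4 and Lama5, and the Lama5 chain is known in mice for its patchy presence along venules.

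Promoter sequence from RefSeq (GRCm38.p6) was matched by symbol for 7 of the 10 genes. The Hspg2 sequence was cut at the GENCODE start of the gene (137468769), which lies upstream of its RefSeq start. Lama5 and Hspg2 are shown because their upstream sequence held the most GC boxes among these genes, and the capitals mark each GC box, GGGCGG on the shown strand or CCGCCC where the motif lies on the other strand. The third sequence is shown because Col4a1 and Col4a2 start head to head on chromosome 8, and its capitals mark the 22 bases that lie in the annotated 5′ ends of both transcripts.
Lama5, chr2:180225860-180226109, minus strand, the 250 bases before the start: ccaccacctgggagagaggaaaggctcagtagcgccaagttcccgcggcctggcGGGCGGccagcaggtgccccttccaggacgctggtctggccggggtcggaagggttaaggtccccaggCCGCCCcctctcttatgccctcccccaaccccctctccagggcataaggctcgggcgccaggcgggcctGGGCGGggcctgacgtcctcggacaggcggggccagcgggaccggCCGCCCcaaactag
Hspg2, chr4:137468553-137468768, plus strand, 216 bases before the start: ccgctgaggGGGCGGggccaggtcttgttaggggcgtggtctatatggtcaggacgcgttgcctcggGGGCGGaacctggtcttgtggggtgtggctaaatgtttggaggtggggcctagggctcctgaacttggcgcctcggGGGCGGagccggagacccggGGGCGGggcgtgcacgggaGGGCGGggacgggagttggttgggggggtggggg
Col4a1 and Col4a2, chr8:11312801-11312830, plus strand, 30 bases: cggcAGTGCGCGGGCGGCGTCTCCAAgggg
In windows from 250 bases before to 50 bases after each RefSeq start, read on both strands, Hspg2 held 5 GC boxes, Lama5 held 4, Col4a2 held 3, Lamb1 held 2, and Col4a1 and Nid1 held 1 each. Sparc held none. GGGCGG was found in 35.9% of 27025 such windows over the genome. CCAAT occurred in the windows of Col4a1, Col4a2, Lamb1 and Nid1 and in 37.9% of all windows, and TATAAA occurred in none of the 7 and in 14.2% of all windows. No matches of these motifs overlapped in the printed Lama5 and Hspg2 sequences.

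The BEC sort held 3228 cells with 71304111 UMIs, and the LEC sort held 4407 cells with 59273049 UMIs. Cells were kept as own-type when, at 5000 UMIs per cell, they carried a UMI of at least 4 of the 8 markers of their own sort, markers of the other endothelial type numbering at most 50% of these, and at most 2 markers of each of the melanocytic, mural, fibroblast and leukocyte lists. This left 3088 BEC (95.7%, median 19452.5 UMIs) and 3442 LEC (78.1%, median 10403 UMIs). All 8 BEC markers and all 8 LEC markers were present in their own sort, with Flt1 at 1186 CPM in BEC, against 2.33 CPM in LEC, and Prox1 at 0.513 CPM in BEC, against 293 CPM in LEC. The summed melanocytic markers were at 25.7 CPM in BEC, against 149 CPM in LEC, the fibroblast markers at 1.92 CPM in BEC, against 164 CPM in LEC, and all 4 keratinocyte markers were at 0 in both. In the text, CPM is UMIs of a gene per 1000000 UMIs of the cells named, counted per captured molecule and not scaled by transcript length. Ratios are BEC over LEC or gated cells over the other own-type cells, and all intervals are exact 95% intervals that cover counting error only. A count of 3 UMIs corresponds to 0.0440 CPM in own-type BEC and 0.0719 CPM in own-type LEC. Cell barcodes shared between the sorts numbered 34 (1.05% of BEC and 0.772% of LEC).

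Most of the basement membrane genes were at higher levels in tumor BEC than in tumor LEC. Of the 10 genes, 6 passed 2-fold with the higher level in BEC, namely Sparc, Lama5, Col4a2, Nid2, Hspg2 and Col4a1, where 9.64% of the 8269 genes at 10 CPM or more in either sort were. None was at least 2-fold lower, where 11.8% of all genes were. Over all cells of the sorts, own-type or not, the counts were also 6 and 0, where 8.76% of 8307 genes were higher and 11.7% lower. Lamb1, Lamc1 and Nid1 were less than 2-fold higher in BEC, and Lama4 was the 1 gene with a lower level in BEC. The median log2 ratio of the 10 genes was 2.02, beside -0.11 over all 8269 genes. Together the 10 genes made up 1.69% of all UMIs in BEC (16927 CPM) and 0.138% in LEC (1376 CPM), a 12.3-fold difference (12.2 to 12.4). Without Sparc the sum was at 2775 CPM in BEC, against 992 CPM in LEC, 2.80-fold higher (2.77 to 2.83).

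**Figure D1:**
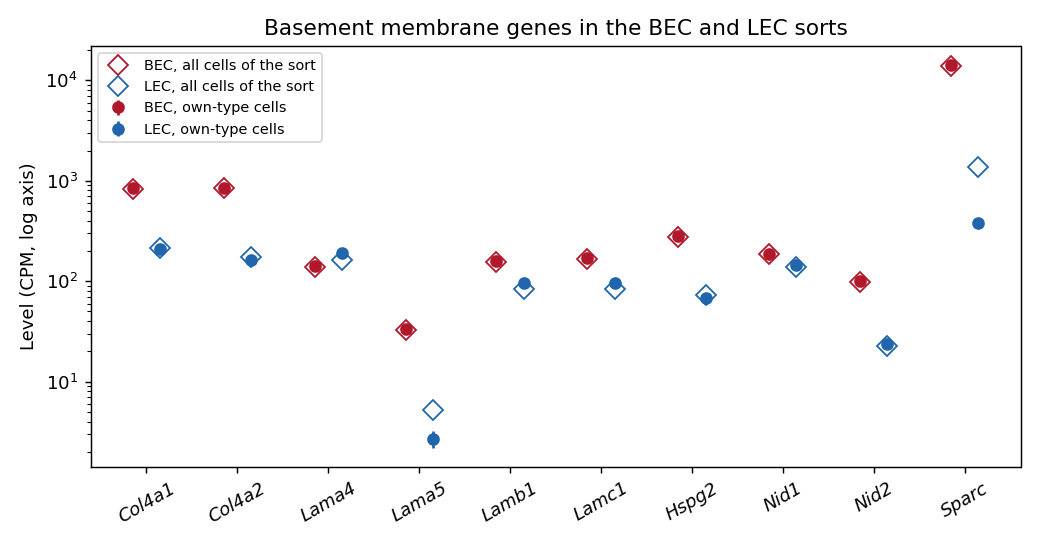
Level of the 10 genes in CPM (log axis) in the BEC sort (red) and the LEC sort (blue). Filled points are own-type cells with exact 95% counting intervals, often smaller than the point, and open diamonds are all cells of the sort. Sparc is at 14153 CPM in BEC, against 384 CPM in LEC own-type cells, and Lama4 is the 1 gene whose LEC point lies above its BEC point.

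Sparc, which encodes a secreted glycoprotein that binds collagen IV (chromosome 11, 55394500 to 55423183, minus strand, GRCm38), was the most abundant of the genes in both cell types. It stood at 14153 CPM in BEC (14124 to 14181), against 384 CPM in LEC (378 to 390), 36.8-fold higher (36.3 to 37.4). Sparc gave 83.6% of the UMIs of the 10 genes in BEC and 27.9% in LEC. At 5000 UMIs per cell every one of the 3088 BEC had a Sparc UMI, with 30 UMIs at the 10th percentile of cells, 66 at the median and 112 at the 90th percentile. Of the LEC, 43.6% had a Sparc UMI at that depth (51.4% without thinning), with a median of 0 and 5 UMIs at the 90th percentile. The distributions overlapped little, since 99.4% of BEC and 2.82% of LEC had more than 10 Sparc UMIs.

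The Sparc level of the LEC sort depended on which of its cells were counted. Over all cells of the sorts Sparc was at 13885 CPM in BEC, against 1386 CPM in LEC, a ratio of 10.0. The own-type LEC held 70.4% of the UMIs of their sort and 19.5% of its Sparc UMIs. In the LEC sort, 212 cells with melanocytic markers held 26.2% of the Sparc UMIs at 3377 CPM, 90 cells with BEC markers held 27.5% at 12651 CPM, and 654 other left-out cells held 24.5% at 2187 CPM. The BEC markers Flt1 and Nrp1 were at 1186 and 545 CPM in BEC, against 2.33 and 1.01 CPM in own-type LEC, while Plvap stood at 4933 CPM in BEC, against 812 CPM in LEC. The part of free RNA and of mixed droplets in the LEC level of Sparc was not tested.

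**Figure D2:**
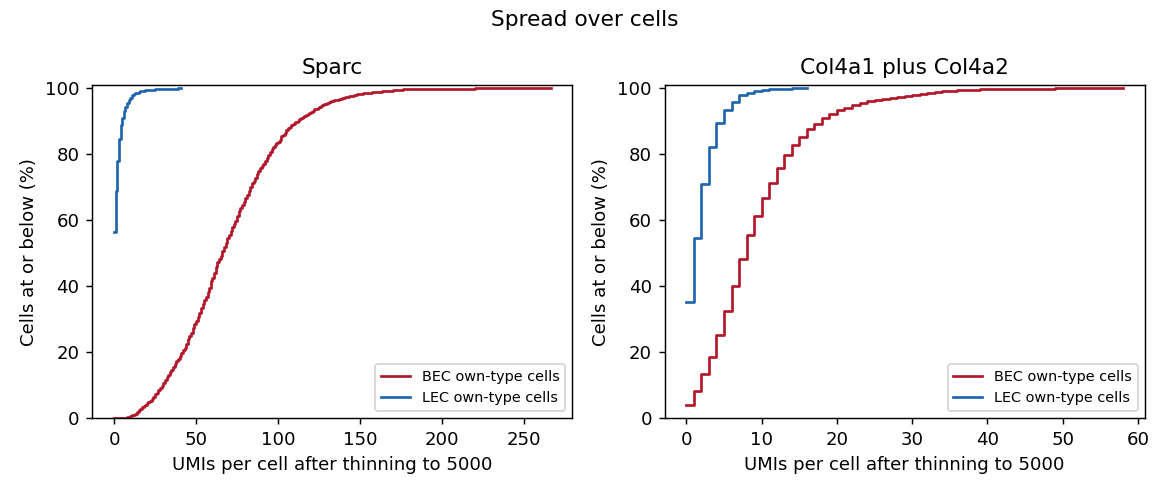
Cumulative share of own-type cells (percent) at or below a number of UMIs after every cell was thinned to 5000 UMIs, for Sparc (left) and for Col4a1 plus Col4a2 (right), with BEC in red and LEC in blue. For Sparc the cells are nearly separate, with medians of 66 UMIs in BEC and 0 in LEC. For collagen IV they overlap more, with 18.7% of BEC and 82.1% of LEC at or below 3 UMIs.

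The collagen IV chains were higher in BEC and were near equal to each other there. Col4a1 (chromosome 8, 11198423 to 11312826, minus strand) was at 849 CPM in BEC (842 to 856), against 211 CPM in LEC (206 to 215), 4.03-fold higher (3.94 to 4.12). Col4a2 (chromosome 8, 11312805 to 11449287, plus strand) was at 854 CPM in BEC (847 to 861), against 161 CPM in LEC (158 to 165), 5.29-fold higher (5.16 to 5.43). Col4a1 gave 49.8% of the UMIs of both chains in BEC (49.6 to 50.1%) and 56.6% in LEC (55.8 to 57.4%). At 5000 UMIs per cell, Col4a1 had a UMI in 90.5% of BEC and 48.4% of LEC, and Col4a2 in 88.9% of BEC and 37.3% of LEC (without thinning, Col4a1 in 96.4% of BEC and 62.2% of LEC, and Col4a2 in 95.9% of BEC and 47.3% of LEC). The head-to-head genes overlap only at their 5′ ends, and the counts come from 3′ ends.

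The laminin chains differed in direction. Lama4 was at 141 CPM in BEC (138 to 144), against 189 CPM in LEC (185 to 194), a ratio of 0.746 (0.724 to 0.769), which is 1.34-fold higher in LEC. Over all settings tried this ratio stayed between 0.744 and 0.849. Lama5 was at 33.2 CPM in BEC (31.9 to 34.6), against 2.68 CPM in LEC (2.21 to 3.23), 12.4-fold higher (10.2 to 15.1). The beta chain gene Lamb1 was at 159 CPM in BEC, against 95.004 CPM in LEC, 1.67-fold higher (1.61 to 1.73), and the gamma chain gene Lamc1 at 170 CPM in BEC, against 96.4 CPM in LEC, 1.77-fold higher (1.71 to 1.83). In BEC the UMI level of Lama4 lay below those of Lamb1 and Lamc1, whereas in LEC it lay above both.

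The share of Lama4 among the UMIs of Lama4 and Lama5 was 81.0% in BEC (80.2 to 81.7%) and 98.6% in LEC (98.3 to 98.9%). Lama5 was rare in LEC, with 112 UMIs in 51 of the 3442 cells. At 5000 UMIs per cell 13.1% of BEC and 0.668% of LEC had a Lama5 UMI (27.7% of BEC and 1.48% of LEC without thinning). The size of the Lama5 ratio depended on the cells counted. It was 77.3 when the 1% of cells with the most Lama5 UMIs were left out of each sort. That step takes a larger part of the 51 LEC with a Lama5 UMI than of the 854 such BEC. The rise to 77.3 follows from this. The ratio was 21.6 with every cell thinned and 6.25 over all cells of the sorts, with BEC higher in both. Own-type LEC held 70.4% of the UMIs of their sort and 36.1% of its Lama5 UMIs.

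Perlecan and the nidogens were also higher in BEC, Nid2 more so than Nid1. Hspg2 was at 280 CPM in BEC (276 to 284), against 68.3 CPM in LEC (65.8 to 70.9), 4.10-fold higher (3.94 to 4.27). Nid1 was at 187 CPM in BEC (184 to 190), against 145 CPM in LEC (141 to 148), 1.29-fold higher (1.25 to 1.33). Nid2 was at 100.5 CPM in BEC (98.1 to 103), against 23.7 CPM in LEC (22.2 to 25.2), 4.24-fold higher (3.97 to 4.54). The share of Nid1 among nidogen UMIs was 65.0% in BEC (64.4 to 65.7%) and 85.9% in LEC (85.1 to 86.7%). The last bases of Nid2 (chromosome 14, 19751265 to 19811787, plus strand) overlap Rtraf on the other strand, and no source used here says whether the counting used strand. Rtraf, matched through its older symbol in RefSeq, was at 317 CPM in BEC, against 318 CPM in LEC, a ratio of 0.996 (0.974 to 1.02).

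Ordered by UMI level, BEC ran Sparc, Col4a2, Col4a1, Hspg2, Nid1, Lamc1, Lamb1, Lama4, Nid2 and Lama5, and the Col4a2 and Col4a1 levels had overlapping intervals. LEC ran Sparc, Col4a1, Lama4, Col4a2, Nid1, Lamc1, Lamb1, Hspg2, Nid2 and Lama5, and the Lamc1 and Lamb1 levels had overlapping intervals. Across single BEC the log2 levels of the genes were positively but loosely related, with Pearson r from 0.01 to 0.52 over the 45 pairs (median 0.22, 3088 cells, each thinned to 5000 UMIs). The closest pair was Col4a1 and Col4a2 (r = 0.52), and the next were Col4a1 and Hspg2 and Col4a2 and Hspg2 (r = 0.37 each). These BEC include 143 cells with under 1% mitochondrial UMIs. There the genes other than Sparc had ratios to the other BEC from 0.166 (Hspg2) to 0.506 (Lama5). The part of these cells in the pair values was not tested. In LEC all 45 values lay between -0.02 and 0.14, which at such low counts is no finding. The cells of a sort share libraries and depth, so these values describe the cells and carry no p.

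Other genes of the basement membrane were grouped by role, in lists chosen with earlier results of these data known, and differences between the lists were not tested. Their counts stand beside 9.64% higher and 11.8% lower among all 8269 genes, whose median log2 ratio was -0.11. Of 11 other collagen IV and laminin chains only 4 reached 10 CPM in either sort. In BEC 1 was at least 2-fold higher and 2 at least 2-fold lower (median log2 ratio -2.35). Over all cells of the sorts 2 reached 10 CPM, 0 higher and 1 lower. Lama3, a laminin alpha chain best known from epithelia, was at 10.2 CPM in BEC and had no UMI in LEC. With the LEC count set to 3 UMIs it was 7.14 higher in BEC on the log2 scale. The lower end of its exact interval was 114.6-fold. Col4a5, a chain of the minor collagen IV networks, had 3 UMIs in BEC and was at 16.4 CPM in LEC, 374-fold higher in LEC (127 to 1818). Lamb2 was at 28.9 CPM in BEC, against 34.7 CPM in LEC.

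Of 16 other basement membrane proteins 12 reached 10 CPM. In BEC 8 were at least 2-fold higher and 2 at least 2-fold lower (median log2 ratio 1.39). Over all cells of the sorts 6 were higher and 1 lower of 12. Sparcl1, the close relative of Sparc, was at 1545 CPM in BEC, against 62.4 CPM in LEC, 24.8-fold higher (23.8 to 25.8). Fibronectin (Fn1), which assembles into fibrils beside the basement membrane, went the other way with 73.3 CPM in BEC, against 545 CPM in LEC, and so did fibulin 2 (Fbln2) with 84.1 CPM in BEC, against 173 CPM in LEC. Egfl7, a secreted endothelial factor, was at 1606 CPM in BEC, against 1623 CPM in LEC.

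Of 11 receptor genes 8 reached 10 CPM. In BEC 3 were at least 2-fold higher and 2 at least 2-fold lower (median log2 ratio 0.47). Over all cells of the sorts 3 were higher and 1 lower. The integrin beta chain Itgb1, shared by most matrix receptors, was at 290 CPM in BEC, against 270 CPM in LEC, and the laminin receptor chain Itga6 at 144 CPM in BEC, against 80.9 CPM in LEC. Bcam, a receptor for the Lama5 chain, was at 97.5 CPM in BEC, against 7.70 CPM in LEC, 12.7-fold higher (11.3 to 14.2). Itga9 and Itgb4 were lower in BEC, at 24.3 and 16.3 CPM against 49.9 and 52.0 CPM in LEC. With size factors Fbln2 and Itga9 no longer passed 2-fold.

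Of 19 genes for collagen synthesis 18 reached 10 CPM, with 2 at least 2-fold higher and 2 at least 2-fold lower. These shares were near those of all genes, and the median log2 ratio was 0.27. With size factors 3 were higher and 2 lower, and over all cells of the sorts 1 was higher and 2 lower. The collagen chaperone Serpinh1 was at 2032 CPM in BEC, against 423 CPM in LEC, 4.81-fold higher (4.73 to 4.88). The endoplasmic reticulum proteins Ppib and Hsp90b1 were at 827 and 701 CPM in BEC and at 667 and 639 CPM in LEC. The lysyl hydroxylase Plod2 and the P3h3 gene were lower in BEC, at 7.15 and 18.7 CPM against 18.6 and 51.4 CPM in LEC.

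Of 7 cross-linking genes 4 reached 10 CPM and 3 of these were at least 2-fold lower in BEC (median log2 ratio -3.42). Over all cells of the sorts 4 reached 10 CPM, 1 at least 2-fold higher and 3 lower. Loxl2, a lysyl oxidase that acts on collagen IV, was at 0.733 CPM in BEC, against 65.6 CPM in LEC, 89.5-fold higher in LEC (67.7 to 121). The transglutaminase Tgm2 was at 42.3 CPM in BEC, against 238 CPM in LEC. Peroxidasin (Pxdn), which forms the sulfilimine bond of collagen IV, was at 70.1 CPM in BEC, against 37.3 CPM in LEC, 1.88-fold higher (1.78 to 1.99). Of 15 proteases, heparanase and inhibitors 12 reached 10 CPM, 2 higher and 3 lower, with a median log2 ratio of 0.39. Over all cells of the sorts 13 reached 10 CPM, 3 higher and 5 lower, and the median was -0.02. With size factors 4 were higher and 3 lower in own-type cells. Among those lower in BEC were the inhibitors Timp2 and Timp3, at 33.9 and 234 CPM against 549 and 707 CPM in LEC. The lysosomal proteases Ctsb and Ctsl were at 1253 and 867 CPM in BEC and at 908 and 456 CPM in LEC.

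**Figure D3:**
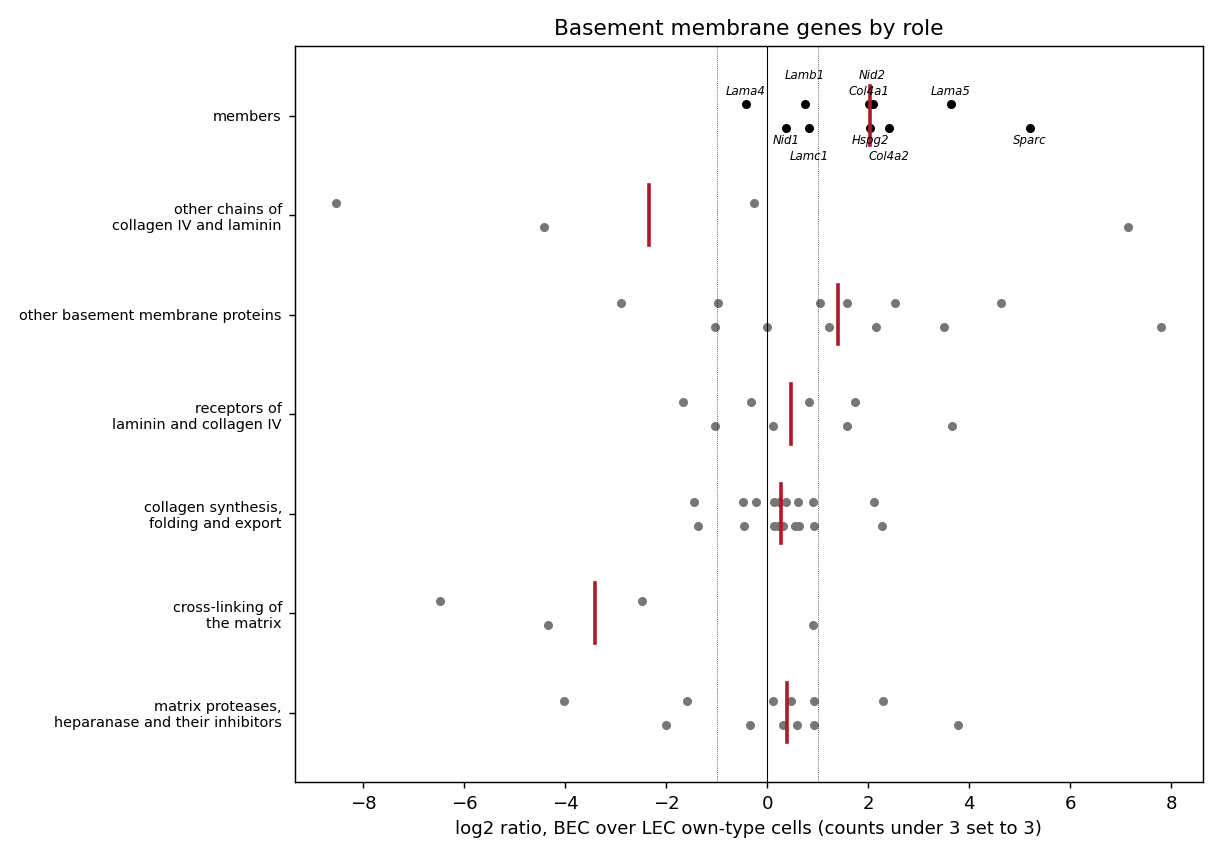
Log2 ratio of BEC over LEC own-type cells for each gene at 10 CPM or more in either sort, by role, with a red bar at the median of each list and dotted lines at 2-fold. Points are staggered in height for legibility, and the 10 genes are labelled in the top row. The 10 genes have a median of 2.02, while the cross-linking genes have a median of -3.42 and the synthesis genes have a median of 0.27.

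Levels were then compared within each sort between cells gated by markers and the other own-type cells. For each of 6 marker sets per sort the 10% of cells with the highest marker score were taken, 309 BEC or 344 LEC, so a gate is a range of a score and not a type, and between 73 and 155 cells lay within 0.1 of its lower bound. In BEC 1580 cells fell in at least 1 gate and 262 in several, and in LEC 1728 and 303. Both sides are cells of the same sample. A difference of 1.5-fold was used to count genes. The shares of all genes are over those at 10 CPM or more in the gate or in the other cells. Lama5 did not reach 10 CPM in any LEC gate.

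The venous-marker gate stood apart among BEC, with 7 of the 10 genes at least 1.5-fold lower than in the other BEC, where 8.60% of 7791 genes were, and none higher, where 10.9% were. Its 309 cells were set by Ackr1, Selp, Sele, Vwf, Nr2f2 and Ephb4, with Ackr1 at 1248 CPM in the gate and 13.8 CPM in the other BEC. Nid2 was at 27.7 CPM in the gate and 107.8 CPM in the other BEC, a ratio of 0.257 (0.220 to 0.299). Lama4 was at 51.2 CPM in the gate and 150.3 CPM outside it, a ratio of 0.341 (0.304 to 0.381). Next in size were Lamc1 with a ratio of 0.492, Sparc with 0.541, Lamb1 with 0.563, Col4a2 with 0.584 and Col4a1 with 0.620. Sparc was at 7995 CPM in the gate and 14769 CPM outside it. Hspg2 and Nid1 had ratios of 0.696 and 0.732. Lama5 was at 32.4 CPM in the gate and 33.3 CPM outside it, a ratio of 0.972 (0.837 to 1.12), and was the 1 gene whose interval included 1.

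The share of Lama4 among Lama4 and Lama5 UMIs was lowest of all gates in the venous-marker BEC, at 61.3% (56.9 to 65.5%), and the share of Nid1 among nidogen UMIs was 83.5% there (81.1 to 85.7%), against 65.0% over all own-type BEC. Rtraf, which overlaps the end of Nid2, was at 315 CPM in the gate and 317 CPM outside it. The count of lower genes depended on the width of the gate. At the top 20% of cells 1 pair of gene and BEC gate was at least 1.5-fold lower, Nid2 in venous-marker cells with 0.638, while Lama4 had 0.709 and Sparc 0.691. No share of all genes is given at that width. At the top 5% of cells Nid2 had 0.114 and Lama4 0.178. Among genes of other cell types, Tagln was at 323 CPM in the gate and 24.3 CPM outside it, Kcnj8 at 16.9 CPM in the gate and 105 CPM outside it, and the summed LEC markers at 220 CPM in the gate and 72.7 CPM outside it. The sum of the 10 mural markers was 397 CPM in the gate and 209 CPM outside it, with 3 of the 10 higher, Tagln the most. Like Kcnj8, Abcc9 was lower, at 19.0 CPM in the gate and 46.8 CPM outside it. The part of these markers in the result was not tested.

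Other matrix genes differed between the venous-marker BEC and the other BEC in both directions, and those named here were chosen after their values were seen. The gelatinase Mmp2 was at 123 CPM in the gate and 7.76 CPM outside it, 15.9-fold higher (14.2 to 17.9). The inhibitor Timp2 was 8.51-fold higher, Fbln2 7.78-fold higher, the laminin receptor chain Itgb4 5.31-fold higher and Tgm2 3.82-fold higher. Sparcl1 had a ratio of 0.435, Serpinh1 of 0.599, Fn1 of 0.197 and Lama3 of 0.251. Of all 7791 genes 10.9% were at least 1.5-fold higher in the gate and 8.60% lower. Of the lists, collagen synthesis had 1 gene higher and 3 lower of 17, and proteases and inhibitors had 3 higher and 1 lower of 12. Other basement membrane proteins had 2 higher and 4 lower of 13, and receptors had 2 higher and 2 lower of 8. Differences between the lists were not tested.

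**Figure D4:**
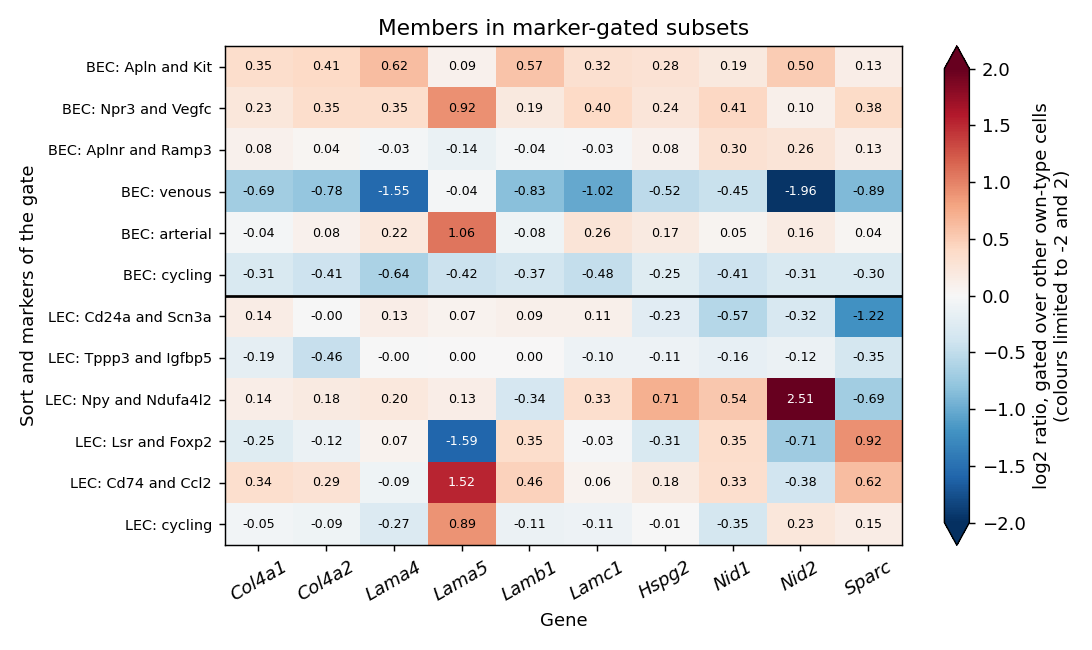
Log2 ratio of each gene in the marker-gated 10% of own-type cells over the other own-type cells of the same sort, with BEC gates above the black line and LEC gates below it. Blue is lower and red higher in the gate. The venous-marker row is blue except for Lama5, and the darkest red cell is Nid2 in the LEC gate of Npy and Ndufa4l2 (2.51).

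The gate of Apln, a gene of sprouting tip cells, and of Kit, Tnfrsf9, Cxcr4 and Pdgfb had all 10 genes at or above the other BEC, 1 of them by at least 1.5-fold, where 5.26% of 7571 genes were, and none lower by that much, where 6.55% were. Lama4 was at 204.5 CPM in the gate and 134 CPM outside it, 1.53-fold higher (1.45 to 1.62), and missed 1.5-fold at the top 20% of cells with 1.47. Lamb1 was 1.49-fold, Nid2 1.42-fold, Col4a2 1.32-fold and Col4a1 1.27-fold higher, and Sparc 1.09-fold. Lama5 had a ratio of 1.06 with an interval that includes 1 (0.932 to 1.21). The level of Col4a1, Col4a2, Lama4, Lamb1, Hspg2 and Nid2 was higher here than in the other 5 BEC gates, though the Col4a2 interval overlapped that of the Npr3 gate, and the Hspg2 interval those of the Npr3 and arterial-marker gates. Fn1 was at 261 CPM in the gate and 50.3 CPM outside it, 5.19-fold higher, Pxdn 2.20-fold and the prolyl hydroxylases P4ha2 and P4ha1 2.04 and 1.78-fold higher. The 8 leukocyte markers summed to 48.8 CPM in the gate and 19.4 CPM outside it, with 6 higher, Coro1a the most (25.4 CPM in the gate and 4.16 CPM outside it), and Ptprc at 0. The 10 mural markers summed to 307 CPM in the gate and 216 CPM outside it, with 6 higher, among them Kcnj8 at 167 CPM in the gate and 88.3 CPM outside it. The part of these markers in the result was not tested.

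Lama5 was highest in the arterial-marker gate and next in the gate of Npr3, Vegfc and Dkk2, with overlapping intervals. In arterial-marker BEC, set by Gja5, Gja4, Bmx, Sox17, Efnb2 and Hey1, it was at 63.6 CPM in the gate and 30.4 CPM outside it, 2.09-fold higher (1.86 to 2.34), and under the alternatives tried between 1.95 and 2.26. In the Npr3 gate it was at 58.3 CPM in the gate and 30.8 CPM outside it, 1.89-fold higher (1.69 to 2.12). Lama5 was the 1 gene of the 10 at least 1.5-fold higher in each of these gates, where 7.59% of 7670 genes were in the arterial gate and 5.44% of 7594 in the Npr3 gate. None was 1.5-fold lower, where 5.37% of genes were in the arterial gate and 6.54% in the Npr3 gate. The gates shared cells, with 124 of the arterial-marker cells and 114 of the Npr3 cells also in another gate. The Lama4 share was 71.8% in arterial-marker BEC (69.3 to 74.2%) and 75.1% in the Npr3 gate (72.8 to 77.3%).

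The other matrix genes of the arterial-marker gate included the short-chain collagen Col8a1, at 121 CPM in the gate and 4.24 CPM outside it, 28.5-fold higher (24.7 to 33.0), and also Egfl8 (3.71-fold), Lama3 (3.52-fold), Lamb2 (2.34-fold) and agrin, Agrn (2.07-fold), all chosen after their values were seen. Lama3 (2.79-fold), Lamb2 (1.93-fold) and Agrn (1.90-fold) were also higher in the Npr3 gate. Of the 10 mural markers 5 were higher in arterial-marker BEC, with a sum of 232 CPM in the gate and 226 CPM outside it, and among them the smooth muscle gene Acta2 was at 74.6 CPM in the gate and 15.7 CPM outside it. Their part in the result was not tested. In the Npr3 gate Sparc reached its highest level of any BEC gate, 17902 CPM, against 13787 CPM in the other BEC, a ratio of 1.298.

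In the gate of Aplnr and Ramp3 none of the 10 genes was 1.5-fold apart, where 2.77% of 7532 genes were higher and 4.61% lower, and the ratios ran from 0.909 for Lama5 to 1.23 for Nid1. In the gate of 8 cell cycle genes such as Top2a and Mki67 all 10 genes were lower than in the other BEC, with ratios from 0.642 for Lama4 to 0.842 for Hspg2 and intervals that all lay below 1. The median log2 ratio of -0.39 was the lowest of the BEC gates after the venous-marker gate. Lama4 was the 1 gene past 1.5-fold, where 7.88% of 7702 genes were lower and 11.5% higher, and it missed 1.5-fold at the top 20% of cells (0.788), with another thinning seed (0.674) and with every cell thinned (0.727). The cycling gate had a median of 24948 UMIs per cell and the other BEC 18991.

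Among LEC the largest difference was that of Nid2 in the gate of Npy, Ndufa4l2, Pgf and Egln3. Nid2 was at 89.5 CPM in these 344 cells (81.0 to 98.7) and 15.8 CPM in the other LEC, 5.68-fold higher (4.99 to 6.46), and between 4.01 and 6.87 under the alternatives tried. The gate held 401 of the 988 Nid2 UMIs of the own-type LEC, and 1 cell gave 3.24% of them. Hspg2 was 1.64-fold higher (1.48 to 1.81), and these were 2 of the 10 genes at least 1.5-fold higher, where 9.85% of 8061 genes were. At the top 20% of cells Hspg2 missed 1.5-fold with 1.35. Nid1 was 1.45-fold higher, with 201 CPM in the gate and 138 CPM outside it. Sparc was at 248 CPM in the gate and 400.5 CPM outside it, a ratio of 0.619 (0.582 to 0.658), the 1 gene at least 1.5-fold lower, where 14.3% of genes were. Sparc missed 1.5-fold at the top 20% of cells (0.769) and with every cell thinned (0.699). The Nid1 share of nidogen UMIs was 69.2% in this gate (66.6 to 71.7%), the lowest of the LEC gates. Rtraf was at 340 CPM in the gate and 316 CPM outside it.

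Of 17 collagen synthesis genes in the same LEC gate 4 were at least 1.5-fold higher, where 9.85% of all genes were, and 2 lower, where 14.3% were, with a median log2 ratio of 0.06. The 4 were all hydroxylases. The prolyl hydroxylases P4ha2 and P4ha1 were 8.28-fold (7.35 to 9.33) and 3.11-fold (2.79 to 3.45) higher, and the lysyl hydroxylases Plod2 and Plod1 5.78-fold (4.996 to 6.69) and 1.98-fold (1.85 to 2.12). Col4a1, Col4a2 and Lama4 had ratios of 1.10, 1.13 and 1.15 in these cells. The 8 leukocyte markers summed to 131 CPM in the gate and 33.8 CPM outside it, a difference that lay in Cd68 (109 CPM in the gate and 10.9 CPM outside it), while Ptprc and Coro1a had no UMI in the gate. The 8 fibroblast markers summed to 304 CPM in the gate and 147 CPM outside it, nearly all from Dcn, while Col1a1, Col1a2 and Pdgfra had no UMI in the gate. The 10 mural markers summed to 80.6 CPM in the gate and 36.4 CPM outside it, with 4 higher and 5 at 0. Among the higher was Kcnj8, at 42.4 CPM in the gate and 12.9 CPM outside it. The summed BEC markers were at 388 CPM in the gate and 1156 CPM outside it. The summed LEC markers were at 17546.5 CPM in the gate and 33906.4 CPM outside it. The part of all these markers in the result was not tested.

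**Figure D5:**
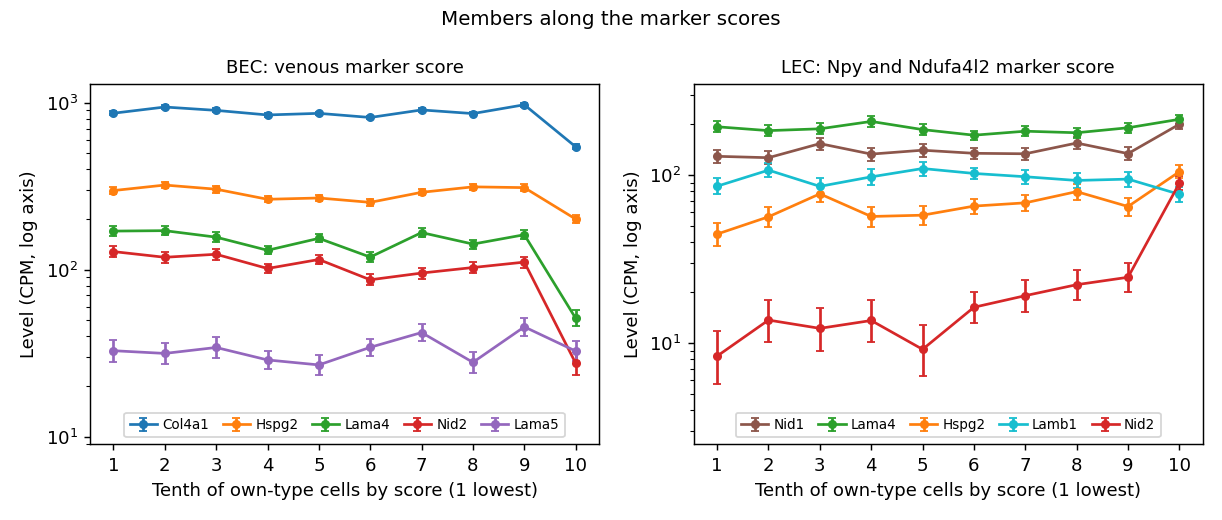
Level in CPM (log axis) with exact 95% counting intervals in 10 equal bins of own-type cells, ordered from the lowest to the highest marker score, for 5 genes along the venous score in BEC (left) and 5 genes along the Npy and Ndufa4l2 score in LEC (right). Col4a1, Hspg2, Lama4 and Nid2 have their lowest BEC level in the highest bin, Lama5 has its lowest in the fifth bin, and Nid2 in LEC reaches 89.5 CPM in the highest bin.

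The bins of the marker scores, added after the gate values were seen, show where along the score the levels differ. In BEC Nid2 lay between 86.9 and 128 CPM in the 9 lower bins of the venous score and at 27.5 CPM in the highest. Lama4 lay between 119 and 171 CPM in the 9 lower bins and at 51.1 CPM in the highest. In LEC Nid2 was at 8.37 CPM in the lowest bin of the Npy and Ndufa4l2 score, at 24.6 CPM in the ninth and at 89.5 CPM in the highest, and the 5 lowest bins had overlapping intervals.

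Sparc also differed between the other LEC gates. In the gate of Lsr, Postn and Foxp2 it was at 667 CPM against 353 CPM in the other LEC, 1.89-fold higher (1.82 to 1.97), where 5.45% of 8031 genes were at least 1.5-fold higher and 5.80% lower. The summed BEC markers were at 1994 CPM in that gate and 971 CPM outside it, and their part in the result was not tested. In the gate of Cd24a and Scn3a Sparc was at 174 CPM against 406 CPM in the other LEC, a ratio of 0.430 (0.398 to 0.464), where 5.70% of 8039 genes were at least 1.5-fold lower and 5.98% higher. A single cell gave 15.9% of the Sparc UMIs of the Cd24a and Scn3a gate. In the gate of Cd74, H2-Aa, Ccl2 and Vcam1 Sparc was at 558 CPM against 362 CPM in the other LEC, 1.54-fold higher (1.48 to 1.61), and Lama5 was at 6.36 CPM from 30 UMIs against 2.22 CPM, 2.87-fold higher (1.82 to 4.41). These were 2 of the 10 genes, where 4.65% of 7942 genes were at least 1.5-fold higher, and none was lower, where 6.02% were. Lama5 lay under the 10 CPM that those 7942 genes reached, so of the 2 only Sparc is among them. Sparc missed 1.5-fold in this gate under 4 alternatives, with ratios down to 1.36. The 8 fibroblast markers summed to 533 CPM in the gate and 117 CPM outside it, nearly all from Dcn (528 CPM in the gate and 111 CPM outside it), with 4 of the 8 higher and Pdgfra at 0. The 10 mural markers summed to 94.6 CPM in the gate and 34.3 CPM outside it, with 4 of the 10 higher, among them Acta2 at 59.2 CPM in the gate and 11.7 CPM outside it. The part of these markers in the result was not tested.

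In the Lsr and Foxp2 gate Nid2 was at 15.1 CPM against 24.6 CPM in the other LEC, a ratio of 0.612 (0.466 to 0.790) that missed 1.5-fold at the top 5% of cells with 0.802, and Lama5 had 4 UMIs, too few to give its direction. None of the 10 genes was 1.5-fold apart in the gate of Tppp3 and Igfbp5, where 5.87% of 7976 genes were higher and 8.96% lower. In cycling LEC Lama5 was the 1 gene at least 1.5-fold higher, with 23 UMIs and a ratio of 1.86 (1.12 to 2.96), where 8.44% of 8128 genes were, and none was lower, where 5.47% were. At 4.51 CPM in the gate, Lama5 lay under the 10 CPM that those 8128 genes reached and is not among them. It missed 1.5-fold at the top 20% of cells (1.21) and with another thinning seed (1.44). The collagen IV chains, Lama4, Lamb1, Lamc1 and Nid1 were within 1.5-fold in all 6 LEC gates at the top 10% of cells. Nid1 came nearest to that bound, at 0.675 in the Cd24a and Scn3a gate, and was past it at the top 5% of cells (0.591). Under the alternatives tried Nid1 reached 1.60 in the Npy gate. Lamb1 reached 0.653 in the Npy gate and 1.63 in the Cd74 gate. Col4a1 ranged only from 180 CPM in the Lsr gate to 258 CPM in the Cd74 gate.

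The chain shares followed these levels. In BEC gates the Col4a1 share of collagen IV UMIs ran from 47.9% in arterial-marker cells (46.9 to 48.9%) to 51.5% in cycling cells (50.6 to 52.4%), and in LEC gates from 54.7% in the Lsr gate (52.0 to 57.3%) to 60.9% in the Tppp3 gate (58.0 to 63.8%). The Lama4 share reached 85.4% in the Apln and Kit gate (83.6 to 87.0%), the highest of the BEC gates. In the LEC gates it lay between 96.6% and 99.5%.

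Genes most like the summed 10 genes across BEC were Igfbp7 (r = 0.63), Igfbp3 (0.62), Gpihbp1 (0.60), Cd81 (0.45) and Degs1 (0.44), by Pearson correlation over 3088 cells thinned to 5000 UMIs and among 4538 genes detected in at least 10% of them. The sum is mostly Sparc, and with Sparc left out none of these 5 was among the leading 5, which were then the mitochondrial transcripts mt-Cytb (0.59), mt-Co3 (0.55), mt-Atp6 (0.55), mt-Co2 (0.54) and mt-Nd1 (0.53). In LEC the leading genes were mt-Atp6, mt-Co3, mt-Co1, mt-Cytb and mt-Nd4, with r between 0.18 and 0.22, which is no finding at these counts. All genes of a cell share its depth and RNA content, and no p is given.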

How the data were processed

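The authors deposited raw UMI counts of both sorts in a single matrix (genes by cells), produced with Cell Ranger 2.1.1 on mm10 per the submitters' processing notes. No source used here gives their filter on cells. No cell carries a library number, so each sort was 1 sample and no test, SD or p-value is given. Total depth was 71304111 UMIs in BEC and 59273049 UMIs in LEC, and an interval is Poisson for a CPM, conditional binomial for a ratio and Clopper-Pearson for a share. The 10 genes, the pathway lists and the marker sets were chosen with earlier results of these data known, and the bounds that define own-type cells were set after marker counts, but not levels of the 10 genes, had been seen. No doublet caller was run, and cells with markers of another class were left out of the own-type cells.

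Cells were thinned to 5000 UMIs by random draws without replacement for gates, shares of cells and correlations, and no cell was shallower. The marker score of a gate was the mean z-score of log2(thinned count + 1) over its markers. Of each pathway list, the 3 genes with the highest mean CPM were named, with any gene 2-fold or more against the direction of the list's median. For likeness the 5 leading genes were named. Some genes of these lists are not reported here. The ratio and correlation steps were tested on simulated data, and the gate step was not. Alternatives were other sets of cells, median-of-ratios size factors, thinning, gate widths of 5% and 20%, another seed, cells in several gates left out, shared barcodes left out and the cells with the most UMIs of a gene left out. Added after the data were seen were the exclusion of cells under 1% mitochondrial UMIs, the sum without Sparc and the score bins. Positions are from GENCODE M21 (GRCm38). Python 3.11.15, numpy 2.4.6, scipy 1.17.1, pandas 2.3.3 and matplotlib 3.10.9 were used.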

Additional observations from a re-analysis of the deposited data

Results flagged for a closer look

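Lama5 was lower in cycling BEC than in the other BEC, with a ratio of 0.745, and higher in cycling LEC than in the other LEC, with a ratio of 1.86. Sparc likewise had a ratio of 0.811 in cycling BEC and 1.11 in cycling LEC. The opposite directions in the 2 cell types marked these values, and the difference between the cell types was not tested, since each sort was 1 sample. The LEC value of Lama5 rests on 23 UMIs in the cycling cells.

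Cells outside the comparisons also held UMIs of the 10 genes. The summed level was 4749 CPM in 18 cells with melanocytic markers in the BEC sort (4589 to 4913) and 3797 CPM in 212 such cells of the LEC sort (3750 to 3846), mostly from Sparc with 4196 CPM in the BEC sort and 3377 CPM in the LEC sort. In 32 cells of the BEC sort with mural markers the sum was 12889 CPM (12614 to 13169), with Sparc at 10598 CPM and Col4a1 at 809 CPM. There was no control sample for these cells, and each value lay above the limit that a count of 0 allows.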

How the results depend on the processing

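No paired analysis was possible because the cell names carry no library number and no result comes from a test. The count of 6 of the 10 genes at least 2-fold higher and 0 lower in BEC held within 1.5 times under every alternative run. The LEC share of Lama4 among Lama4 and Lama5 UMIs was 96.9% over all cells of the sort, against 98.6% in own-type cells. Pairs of gene and BEC gate at least 1.5-fold higher numbered 3, and 5 at the top 5% of cells, 6 with every cell thinned and 5 without cells in several gates. Pairs lower in BEC gates numbered 8, and 1 at the top 20% of cells. Pairs lower in LEC gates numbered 4, and 2 at the top 20% and 8 without cells in several gates. No share of all genes is given beside these counts for the alternatives, so their changes are not read as results about the 10 genes. Lama5 in the LEC gate of Lsr and Foxp2 had a ratio of 0.333 that turned to 1.58 at the top 20% and 2.27 with another thinning seed. Of the 5 genes most like the sum in BEC, 3 were shared with Spearman correlation and 0 with the sum without Sparc. The cause of these shifts was not tested. The Sparc ratio of BEC over LEC ran from 10.0 over all cells to 44.3, and that of Lama5 from 6.25 to 77.3. Size factors shift every log2 ratio of BEC over LEC by 0.08 and turned no direction among the 10 genes. Over single genes, 543 values stayed within their counting interval and 269 left it. Levels under about 3 UMIs, 0.0440 CPM in own-type BEC and 0.0719 CPM in own-type LEC, are beyond this depth.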

Other observations

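Among own-type BEC, 143 cells had under 1% mitochondrial UMIs, and the 10 genes stood differently there. Sparc was at 13285 CPM in these cells and 14174 CPM in the other BEC, a ratio of 0.937 (0.925 to 0.9499). The other 9 genes had ratios between 0.166 for Hspg2 and 0.506 for Lama5, with Col4a1 at 161 CPM in these cells and 866 CPM in the other BEC. The cells were shallower, with a median of 9650 UMIs against 20181 UMIs in the other BEC. In LEC 51 cells had under 1% mitochondrial UMIs, and there Lamb1 had a ratio of 0.201 (0.0961 to 0.369) and Nid2 of 1.89 (1.19 to 2.85). The split was chosen after the data were seen, and what these cells are was not tested.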
